A study of Mus musculus with 2 samples.

Results

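The 10 genes described here belong to the bone morphogenetic protein (BMP) pathway: the ligands Bmp2 and Bmp4, the receptors Bmpr1a and Bmpr2, the signal transducers Smad1, Smad5 and Smad4, and the target genes Id1, Id2 and Id3. They were chosen by name from 21535 protein-coding genes, and their NANOG binding was read from ChIP-seq peak lists. NANOG is a homeobox protein that helps to keep embryonic stem cells pluripotent. Chromatin bound by it was precipitated with 1 antibody from the line E14TG2a.4, which consists of male mouse embryonic stem cells of strain 129/Ola and is labelled with an age of 3.5 days. The 2 biological replicates form 1 group with no treatment named in the labels, so no conditions were compared, and all values describe this 1 line. No expression was measured, and read depth per replicate is unknown. Peaks were assigned to a gene if their summit, in the authors' optimal reproducible set on genome build mm10, lay in the gene body or within 50 kb of its transcription start site (TSS). The conservative set is the authors' stricter one, and a relaxed list is a replicate's (or the pool's) ranked list of peaks and background.

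BMP ligands bind complexes of type I and type II serine/threonine kinase receptors, and the activated type I receptor phosphorylates SMAD1 and SMAD5. These join SMAD4, enter the nucleus and switch on targets, of which the Id genes are the best known. ID proteins lack a DNA-binding domain and hold basic helix-loop-helix factors inactive, and in mouse embryonic stem cell culture BMP4 acts through them, together with leukaemia inhibitory factor, to oppose neural differentiation.

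NANOG peaks lay at some of these genes and not at others. Of the 10 genes, 6 had a peak (60.0%), against 48.4% of all 21535 protein-coding genes, so that the share among the members was not far from the background. The 3 Id genes all had peaks, 8 in total, and both ligands had them, 6 in total. Of the 2 receptors, Bmpr2 had 1 peak and Bmpr1a had none. None of the 3 SMAD transducers had a peak. The signal, which is the authors' own value with no stated scale, ran from 9.429 to 384.8 over the 15 member peaks. Its median was 32.35, against 40.16 over all 15891 optimal peaks. The member peaks therefore included 1 of the highest peaks of the set, at Id3, and many in its lower part.

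**Figure D1:**
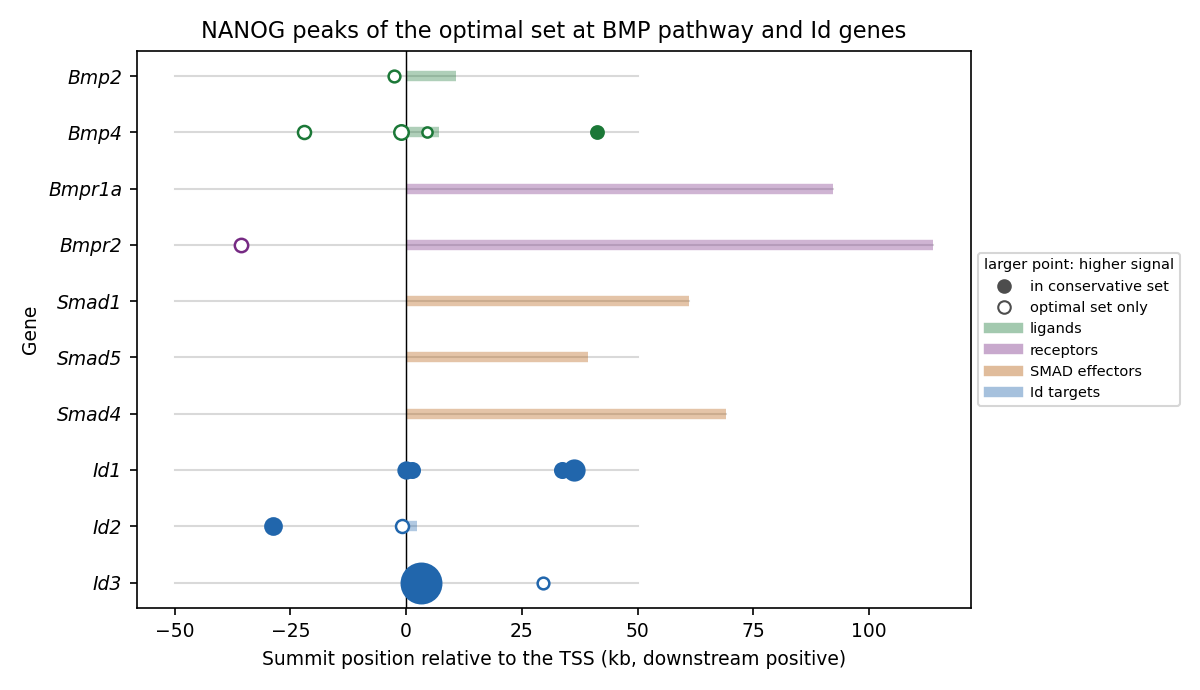
Position of each optimal peak summit relative to the TSS, in kb with downstream positive, at the 10 genes. Grey lines show the 50 kb searched to each side, bars the gene bodies, point size the signal, and filled points the peaks in the conservative set. The 3 Id genes, Bmp2 and Bmp4 carry peaks within 5 kb of the TSS, while Smad1, Smad5, Smad4 and Bmpr1a carry none in the whole window.

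The sequences under 7 of these peaks are shown because they are the highest peaks of each bound gene for which the mm9 genome gives sequence, together with 2 of the other Id peaks that hold a motif. The window at the Id1 start site overlaps an exon and is not printed. Each is the plus strand, 100 bp to each side of the centre of the deposited mm9 series-level peak, read from the mouse genome on build mm9, with offsets from the mm9 TSS. Capitals mark matches to 1 of 8 motifs searched on both strands.
Id3 +3.45 kb, chr4:135702760-135702960: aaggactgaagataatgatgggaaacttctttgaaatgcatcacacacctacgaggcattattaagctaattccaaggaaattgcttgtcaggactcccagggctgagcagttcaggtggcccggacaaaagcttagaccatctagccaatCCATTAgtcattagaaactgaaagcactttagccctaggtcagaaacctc
Id1 +36.2 kb, chr2:152598052-152598252: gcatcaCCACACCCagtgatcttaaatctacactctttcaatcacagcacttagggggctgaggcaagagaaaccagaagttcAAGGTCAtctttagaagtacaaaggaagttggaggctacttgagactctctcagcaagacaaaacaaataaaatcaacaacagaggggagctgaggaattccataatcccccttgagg
Id1 +33.5 kb, chr2:152595411-152595611: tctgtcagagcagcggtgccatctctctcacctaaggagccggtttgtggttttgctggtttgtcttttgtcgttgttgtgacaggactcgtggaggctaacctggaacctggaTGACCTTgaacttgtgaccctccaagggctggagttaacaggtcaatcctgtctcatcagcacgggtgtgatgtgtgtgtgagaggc
Id2 -28.6 kb, chr12:25809483-25809683: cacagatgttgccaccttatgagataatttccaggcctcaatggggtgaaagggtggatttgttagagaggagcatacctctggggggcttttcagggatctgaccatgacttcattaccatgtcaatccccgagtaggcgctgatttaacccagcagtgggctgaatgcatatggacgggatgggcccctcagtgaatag
Id2 -0.801 kb, chr12:25781658-25781858: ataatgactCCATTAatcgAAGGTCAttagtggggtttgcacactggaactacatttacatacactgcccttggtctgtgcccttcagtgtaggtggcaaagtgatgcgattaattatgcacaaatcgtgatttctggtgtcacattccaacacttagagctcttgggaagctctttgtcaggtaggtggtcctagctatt
Bmp4 -1.19 kb, chr14:47011438-47011638: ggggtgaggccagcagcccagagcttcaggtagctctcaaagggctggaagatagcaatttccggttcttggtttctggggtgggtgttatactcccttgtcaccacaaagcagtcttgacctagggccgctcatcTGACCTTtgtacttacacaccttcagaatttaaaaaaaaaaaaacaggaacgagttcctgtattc
Bmpr2 -36.1 kb, chr1:59785291-59785491: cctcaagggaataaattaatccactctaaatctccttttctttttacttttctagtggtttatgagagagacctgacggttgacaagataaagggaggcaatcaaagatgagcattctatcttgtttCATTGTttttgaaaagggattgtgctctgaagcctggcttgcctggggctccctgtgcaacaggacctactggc
The CCATTA of a NANOG-type homeodomain site stood at Id3 from 51 to 56 bp right of the centre and at the near peak of Id2. The nuclear receptor ESRRB's AAGGTCA, or its reverse complement TGACCTT, stood at both distal Id1 peaks, at the near Id2 peak and at the Bmp4 peak. CCACACCC, the reverse complement of the KLF motif GGGTGTGG, stood at the higher of these Id1 peaks. The SOX motif CATTGT stood at the Bmpr2 peak and at the Id1 start site. None of the matches overlapped another.

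Within these 201 bp windows, 7 of the 11 mm9 peaks at members held at least 1 of the 8 motifs, against 49.3% of all 13341 mm9 series-level peaks. CCATTA stood in 2 of the 11, against 11.8% of all peaks. AAGGTCA stood in 4 of the 11, against 12.9% of all peaks. CATTGT stood in 2 of the 11, against 25.8% of all peaks, and GGGTGTGG in 1 of the 11, against 2.84%. The other 4 motifs were in none of the 11 windows. They are the OCT octamer ATGCAAAT (4.17% of all peaks), the STAT motif TTCCNGGAA (1.0%), the GC-rich BMP-SMAD element GGCGCC (0.832%) and the SMAD palindrome GTCTAGAC (0.21%). With 50 bp to each side, the main setting, 5 of the 11 windows held a match, against 30.8% of all peaks, and neither CCATTA was inside. The centre of a broad mm9 region is not its summit, so a match says only that the letters stand in this window. The G and C content was 44.3% in the Id3 window and ran from 39.3% to 52.7% over the 11, against a median of 45.3% with quartiles of 42.3% and 49.3% over all peaks.

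Among the ligands, Bmp4 had 5 peaks, none of them high, and Bmp2 had 1. Bmp4 encodes the ligand used to hold mouse embryonic stem cells undifferentiated in serum-free culture. In the optimal set, 4.99% of all genes had 4 or more summits. The Bmp4 count was 2 in the conservative set, 2 on mm9 and 2 with the highest regions of either replicate alone. These were not the same 2 sites. The conservative regions were an overlapping pair at 41.0 kb and 41.2 kb, and the mm9 peaks matched those at -1.16 kb and -22.0 kb. Among its 15891 highest regions, replicate 1 met only the optimal peaks at -1.16 kb and -22.0 kb. Replicate 2 met only the optimal peak at 41.2 kb. The highest Bmp4 peak lay 1.16 kb upstream of the TSS (chr14:46391646-46392009, mm10) with a signal of 40.16, at rank 7946 of 15891. It ranked 6958 in the relaxed list of replicate 1, with a signal of 34.9, but 240825 in that of replicate 2, with a signal of 4.707. Each relaxed list holds 300000 regions, so this site sat far down in replicate 2, and it was not in the conservative set. A peak 22.0 kb upstream had a signal of 30.2 and 1 in the gene body, 4.5 kb downstream of the TSS, had 13.17. Both were in the relaxed list of replicate 1 and had no summit within 100 bp in that of replicate 2.

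A pair of overlapping regions downstream of Bmp4 was the 1 place at a ligand that entered the conservative set. The stronger region, 41.2 kb downstream (chr14:46349280-46349643), had a signal of 25.42 and ranked 18199 in replicate 1 and 14385 in replicate 2. The weaker region, 41.0 kb downstream (chr14:46349479-46349842), had a signal of 9.429 and a −log10 q-value of 0.477, and neither relaxed list had a summit within 100 bp of it. Both regions are listed with the same bounds in the conservative set. Each of the 5 Bmp4 peaks lay in no other gene's window, and Bmp4 had the nearest TSS.

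Bmp2 encodes a close relative of BMP4 that binds the same receptors. Its peak, 2.56 kb upstream of the TSS (chr2:133549418-133549781), had a signal of 22.05 at rank 14040 of 15891. It ranked 20148 in replicate 1, with a signal of 14.28, and 132844 in replicate 2, with a signal of 5.613. It was not in the conservative set and had no mm9 peak. In the pooled relaxed list it ranked 16169, so it lay outside the 15891 highest regions there as in each replicate.

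Of the receptors, Bmpr2 had 1 peak and Bmpr1a none, although both genes are long. Bmpr2 encodes the type II receptor, the kinase that phosphorylates the type I receptor. Its peak lay 35.7 kb upstream of the TSS (chr1:59728372-59728735), within the window of Nop58 too, with a signal of 32.35 at rank 10058. It ranked 11227 in replicate 1, with a signal of 23.36, and 39053 in replicate 2, with a signal of 7.481, and it was not in the conservative set. None of the peaks lay in the Bmpr2 gene body of 113803 bp.

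Bmpr1a encodes ALK3, a type I BMP receptor. The optimal summit nearest to its TSS lay 143 kb downstream, beyond the gene's 92276 bp, with a signal of 92.41 and with Fam25c as nearest gene. The highest region of the pooled relaxed list in its window lay 34.5 kb downstream of the TSS, inside the gene, with a signal of 24.96 at pooled rank 13911. By signal this region stood above the Bmp2 peak, whose pooled rank was 16169, yet it was not in the optimal set. The deposited mm9 series-level list had a peak at the same distance of 34.5 kb, with an enrichment of 4.7 and a q-value of 0.0157. Bmpr1a thus had a NANOG peak on mm9 and none on mm10.

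The SMAD transducers had no NANOG peak in their bodies or within 50 kb of their TSS. Smad1 and Smad5 encode the receptor-regulated SMADs of the BMP branch, and Smad4 encodes their common partner. These genes are 61034, 39369 and 69002 bp long, and 61.1% of the protein-coding genes of at least 39369 bp had an optimal peak. That cutoff is the length of Smad5, the shortest member without a peak, so it was set with the peaks known. Bmpr1a and Bmpr2 are longer than this too, and of these Bmpr2 had a peak. The optimal summits nearest to their start sites lay 67.7 kb downstream of Smad1 with a signal of 84.16, at -87.9 kb from Smad5 with a signal of 55.24, and at -136 kb from Smad4 with a signal of 46.78. All 3 were in the conservative set, and their nearest TSS belonged to Mmaa, Tgfbi and Mro. Weaker regions did exist in the relaxed pooled list. The highest lay 1.6 kb downstream of the Smad1 TSS at pooled rank 75425, 0.71 kb downstream of the Smad5 TSS at pooled rank 33589, and 38.2 kb downstream of the Smad4 TSS at pooled rank 29774. The replicates differed at Smad1, where the highest region ranked 14556 in replicate 2, with a signal of 9.258 at 1.6 kb, and 51398 in replicate 1, with a signal of 8.976 at -5.43 kb.

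**Figure D2:**
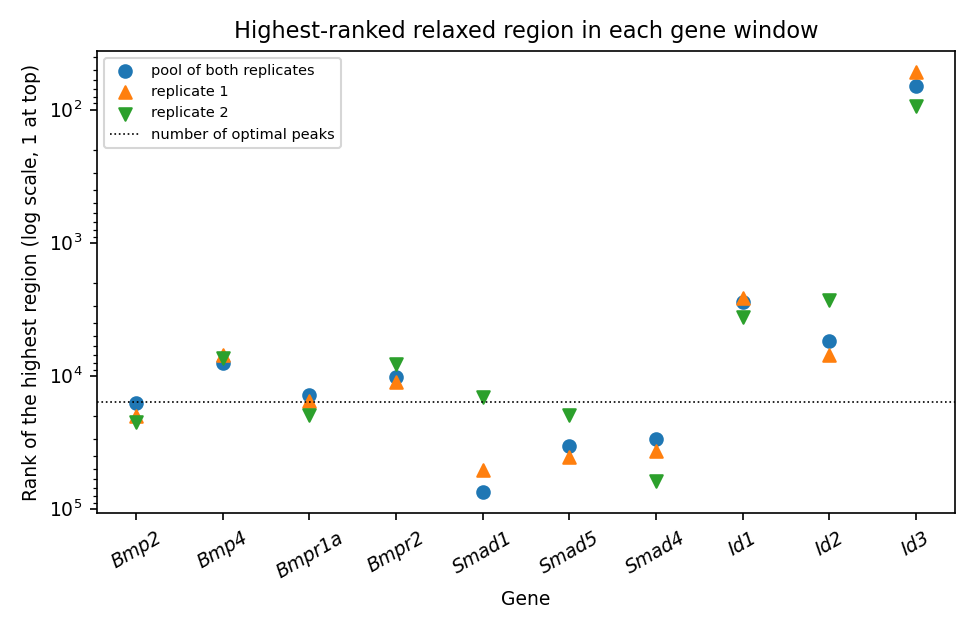
Rank by signal of the highest region in each gene's window in the 3 relaxed lists of 300000 regions, on a log scale with rank 1 at the top. Circles give the pool, upward triangles replicate 1 and downward triangles replicate 2, and the dotted line marks 15891, the number of optimal peaks. The 3 Id genes, Bmp4 and Bmpr2 lie above the line in all 3 lists, and the pooled values of the 3 SMAD genes lie below it. The highest region need not be the same site in each list. In replicates 1 and 2 it lay at -1.16 kb and -9.03 kb for Bmp4. It lay at -35.7 kb and 105 kb for Bmpr2, and at 36.2 kb and -0.02 kb for Id1.

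All 3 Id genes had NANOG peaks, and Id3 carried the highest of the 10 genes by far. Within 5 kb of the TSS, a distance chosen after the values were seen, 5 of the 10 members had a peak (the 3 Id genes, Bmp2 and Bmp4), against 8.45% of all genes. They are short genes, of 1160 bp for Id1, 2294 bp for Id2 and 1571 bp for Id3, and 28.8% of the protein-coding genes of at most 2294 bp had an optimal peak, against all 3 Id genes. Of their 8 peaks, 6 were in the conservative set, against 56.7% of all optimal peaks.

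Id3 had the highest peak of all members. It lay 3.13 kb downstream of the TSS (chr4:136146736-136147146, mm10), past the end of the gene, with a signal of 384.8 at rank 67 of 15891, in the top 0.422% of the set. Only 0.371% of the protein-coding genes (80 of 21535) had a peak with at least this signal in their window. The replicates shared it: the signal was 274.5 at rank 52 in replicate 1 and 113.5 at rank 94 in replicate 2, with summits 0 bp and 13 bp from that of the optimal peak. On mm9 its enrichment was 42.12 in the series-level list, 85.54 in replicate 1 and 38.21 in replicate 2. This site, whose sequence is printed above, stood among the 125 highest regions of each of these lists. The region lies within the window of E2f2 too, but Id3 had the nearest TSS.

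The second Id3 peak lay 29.5 kb downstream (chr4:136173140-136173503), in the gene E2f2 and 1.05 kb from its TSS. It had a signal of 21.76 at rank 14156, ranked 17696 in replicate 1, had no summit within 100 bp in replicate 2, and had no mm9 peak.

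Id1 had 4 peaks, all in the conservative set. The first spanned the TSS (chr2:152736046-152736409), with its summit 0.023 kb upstream and a signal of 50.54 at rank 5978. The next lay 1.34 kb downstream, just past the end of the gene (chr2:152737411-152737774), with a signal of 40.51 at rank 7881. The other two lay 33.6 kb and 36.2 kb downstream, inside the neighbouring gene Bcl2l1, which encodes the cell survival factor BCL-xL. Their signals were 40.82 at chr2:152769647-152770010 and 86.63 at chr2:152772353-152772476, the highest at Id1, at rank 2797. Both lay nearer to the TSS of Cox4i2, 15.9 kb and 18.5 kb away, than to that of Id1. Distance alone does not say which gene such a peak serves.

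On mm10 the 4 Id1 peaks were seen in both replicates, though in another order. The peak at 36.2 kb had a signal of 69.97 in replicate 1, at rank 2594, and 16.17 in replicate 2, at rank 4127. The TSS peak had 33.25 in replicate 1, at rank 7385, and 17.61 in replicate 2, at rank 3611. The peak at 1.34 kb had 22.89 in replicate 1 and 16.6 in replicate 2, and that at 33.6 kb had 30.63 in replicate 1 and 9.637 in replicate 2. In replicate 2 the TSS peak therefore stood above the distal one, and in replicate 1 below it. On mm9 the list of replicate 1 had all 4 sites, with q-values from 0.0027 to 0.0877. That of replicate 2 had only the TSS site and the site at 36.2 kb, with q-values of 0.0017 and 0.2026.

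Id2 had 2 peaks, and the distal one was the stronger. It lay 28.7 kb upstream of the TSS (chr12:25124568-25124931) with a signal of 54.14 at rank 5504, and was in the conservative set. Its signal was 34.65 at rank 7014 in replicate 1 and 21.63 at rank 2692 in replicate 2. The proximal peak, 0.789 kb upstream (chr12:25096699-25097062), had a signal of 29.82 at rank 10961. It had a signal of 30.44 in replicate 1 and no summit within 100 bp in replicate 2, and was not in the conservative set. No other protein-coding gene had either peak in its window.

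**Figure D3:**
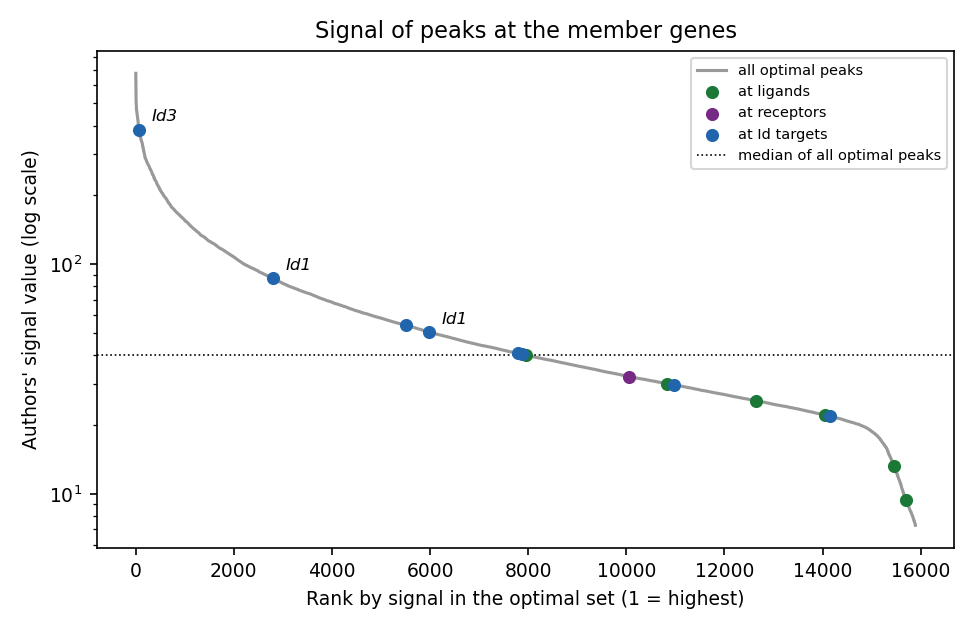
Signal of the 15 member peaks (coloured points) on the ranked curve of all 15891 optimal peaks (grey), with signal on a log scale and rank 1 at the left. The Id3 peak at 384.8 stands far left, 6 of the 15 lie above the dotted median of 40.16, and 9 lie at or below it.

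Counted by peak, the member peaks were supported less often than the whole set on each measure given here. The gap was widest among the highest regions of replicate 1, and with 15 peaks these shares are coarse. In the conservative set stood 8 of the 15 (53.3%), against 56.7% of all optimal peaks. By gene, 4 of the 10 members (Id1, Id2, Id3 and Bmp4) had a conservative summit in their window, against 33.7% of all genes. With each relaxed list limited to its 15891 highest regions, 6 of the 15 member peaks (40.0%) had a summit within 100 bp in both replicates, against 46.2% of all optimal peaks. These 6 were the 4 Id1 peaks, the distal Id2 peak and the high Id3 peak. In replicate 1 alone, 10 of the 15 had such a summit, against 83.1% of all optimal peaks, and in replicate 2 alone 7 of the 15, against 50.5%. In the whole relaxed lists, 14 of the 15 were met in replicate 1, against 96.9% of all optimal peaks, and 10 of the 15 in replicate 2, against 75.0%. The whole relaxed lists of both replicates met 10 of the 15, against 73.1% of all optimal peaks. The 4 added peaks were at Bmp2, at Bmp4 (1.16 kb upstream and 41.2 kb downstream) and at Bmpr2, so that only with the lists limited to 15891 regions were the peaks supported in both replicates all at Id genes.

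**Figure D4:**
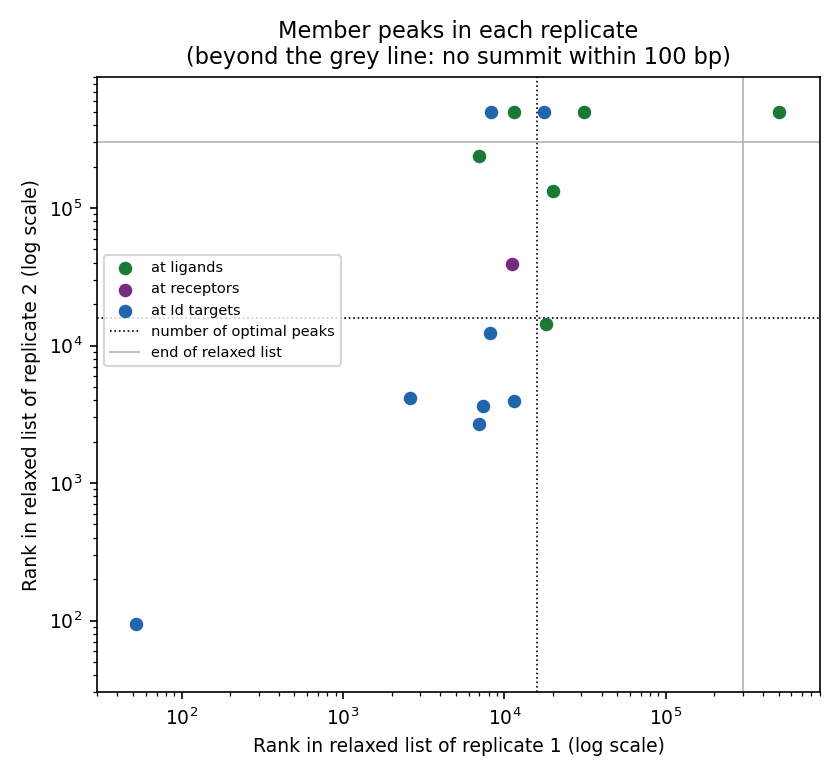
Rank of each of the 15 member peaks in the relaxed list of replicate 1 and of replicate 2, on log scales. Dotted lines mark 15891, and points beyond the grey line at 300000 had no summit within 100 bp in that list. The lower left quadrant holds 6 peaks, all at Id genes, and 4 peaks of ligands or the receptor have a rank in both lists outside it.

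The mm9 lists, read with mm9 gene positions, gave a similar picture. The series-level list had 11 peaks at 6 members, against 45.2% of all mm9 genes with a peak. Of these 6, 5 (Id1, Id2, Id3, Bmp4 and Bmpr2) had an optimal mm10 peak too. The exceptions were Bmpr1a, with an mm9 peak and no mm10 peak, and Bmp2, with an mm10 peak and no mm9 peak. By position relative to the TSS, 10 of the 15 mm10 peaks had an mm9 series-level peak within 1 kb. The mm9 list of replicate 1 had 16 peaks at 7 members, against 61.6% of all genes. The q-values of these 16 ran from 0.0027 to 0.695, both at Id1. The only peaks at Bmpr1a and Bmpr2 in this list had q-values of 0.2332 and 0.0854. The mm9 list of replicate 2 had 4 peaks at 3 members, which were Id1, Id2 and Id3, against 28.2% of all genes. The list of replicate 1 has 22082 peaks in all and that of replicate 2 has 6618. None of Smad1, Smad5 and Smad4 had a series-level peak on mm9. Replicate 1 alone had 1 at Smad4, 38.2 kb downstream, with a q-value of 0.471.

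Closer to the genes, 5 of the 10 members had an optimal summit in the body or within 10 kb of the TSS (Id1, Id2, Id3, Bmp2 and Bmp4), against 25.3% of all genes. All 5 were ligands or targets.

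Of 41 other BMP pathway genes, 27 had an optimal peak (65.9%), 44 peaks in all, against 48.4% of all protein-coding genes. The groups by role are small, and the same background share applies to each. Smad9, the third receptor-regulated SMAD of the BMP branch, had none, as Smad1, Smad5 and Smad4 had none. The inhibitory SMADs did: Smad6 had a signal of 194.9 at -21.0 kb, rank 598, and Smad7 had 76.6 at -6.39 kb, rank 3353. Both block BMP receptor signalling and are themselves induced by it. Of 6 inhibitors in the cell or at the membrane, 4 had a peak (also Bambi and Ski) and Smurf1 and Smurf2 had none.

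Of 6 other targets, 5 had a peak. Msx2, a homeobox gene induced by BMPs, had the highest, 207.6 at 11.2 kb downstream of its TSS, rank 515, and Id4, the remaining Id gene, had 46.65 at -8.33 kb. Msx1, Hey1 and Gata2 had peaks and Dlx5 had none. Of 8 extracellular antagonists, 7 had a peak. Gdf3, a superfamily ligand that can inhibit BMPs, had 122.8 at 18.8 kb, and Twsg1, which binds BMPs with chordin, had 93.7 at -5.12 kb. Cer1, Chrd, Bmper, Fst and Grem1 had peaks, and Nog had none.

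Of 8 other receptors and co-receptors, 6 had a peak. Rgma, a BMP co-receptor, had 161.0 at 24.9 kb and Bmpr1b, a type I receptor, had 80.63 at 320 kb downstream of its TSS, inside its long gene. Acvr1, Rgmb, Acvr2b and Acvr2a had peaks, and Acvrl1 and Eng had none. Of 12 other ligands, 5 had a peak (41.7%), which was near the 48.4% of all protein-coding genes. Bmp8b had 54.63 at -43.5 kb and Bmp15 had 52.55 at 41.2 kb, while Bmp7, Bmp5 and Bmp10 had peaks too. Bmp3, Bmp6, Bmp8a, Gdf2, Gdf5, Gdf6 and Gdf7 had none. Among these 41 genes no signal reached that of Id3.

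**Figure D5:**
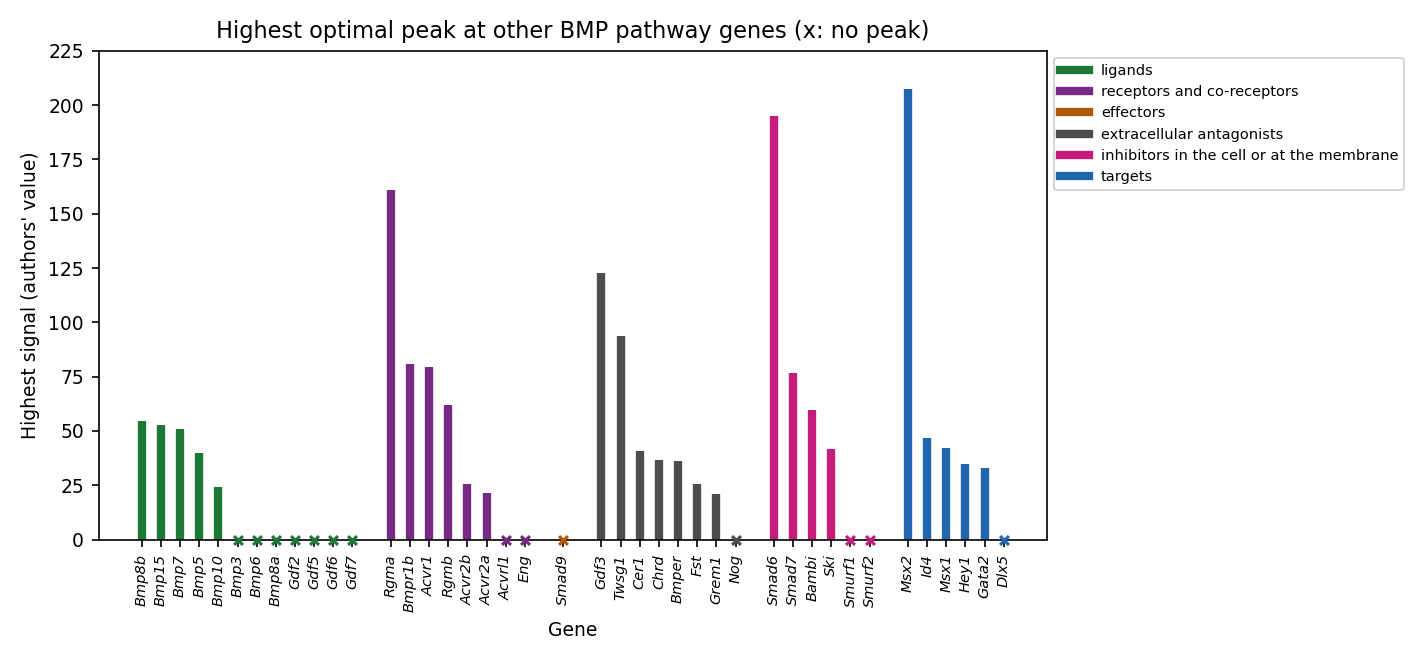
Highest signal of an optimal peak at each of 41 other BMP pathway genes, grouped by role, with a cross at 0 for a gene with no peak. Msx2 (207.6), Smad6 (194.9) and Rgma (161.0) stand highest, and Smad9 has none.

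Pluripotency genes of embryonic stem cells were looked at too. They were chosen with earlier results of these data known, so their peaks are a description and no check of the lists. All 8 looked at (Pou5f1, Nanog, Sox2, Klf4, Esrrb, Zfp42, Tfcp2l1 and Dppa5a) had a peak, against 48.4% of all protein-coding genes. Their highest peaks had signals from 57.08 at Klf4 to 314.3 at Pou5f1. Each of these highest peaks was in the conservative set. The share of all genes with any conservative summit in their window was 33.7%, which is not the same measure. Each of these highest peaks also had a summit within 100 bp among the 15891 highest regions of both replicates. The Id3 peak, at 384.8, stood above each of them by signal.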

How the data were processed

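The 10 members and all lists were chosen with earlier results of these data known. Per the file headers and the deposited notes, the authors prepared 3 relaxed mm10 lists (replicate 1, replicate 2, pool), each with 300000 regions, for the irreproducible discovery rate procedure, and derived the optimal (15891 peaks) and conservative (9431) sets from them. By the field order of this deposited peak type, each peak has a signal, a −log10 q-value, a score and a summit offset. The deposited mm9 regions carry an enrichment ratio (fold, reference not stated), a −log10 p-value and a q-value. For aligner, peak caller and reproducibility threshold, names and settings are not given in the sources used here. Read depth is unknown and the control named in the labels was not used here, so values were used only within a list, for rank and description.

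Genes were placed on mm10 by a RefSeq gene table (GRCm38.p6) with strand known for 21535 of 21883 protein-coding genes (98.4%), and on mm9 by GENCODE M1 (22225 genes). Summits within 100 bp counted as support in a replicate, 1 shared bp as conservative, and offsets from the TSS within 1 kb as an mm9 match. Coordinates were never carried between builds. They are 1-based, and windows run 100 bp to each side of mm9 midpoints. Motif shares are over all 13341 mm9 series-level peaks. No test was made, since there is 1 group. Every member and every peak of it is named, and other pathway genes by the 2 highest signals in each role. A further gene of the pathway, beyond those named, is not reported here. Exons on mm10 were not used here. Alternatives changed the peak set, window, support distance and replicate. Assignment was tested on simulated summits. Tools were Python 3.11.15, NumPy 2.4.6, pandas 2.3.3 and matplotlib 3.10.9.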

Additional observations from a re-analysis of the deposited data

How the results depend on the processing

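Members with a peak numbered 4 to 8 against 6 in the main count: 4 with the conservative set and with optimal peaks of at least the median signal (Id1, Id2, Id3 and Bmp4 in both), 5 within 10 kb, and 8 within 100 kb, which added Smad1 and Smad5. Id1, Id2, Id3 and Bmp4 had a peak under all 9 alternatives, and Smad4 under none. For Bmp4 and Id2 this was not always the same site. The conservative Bmp4 peaks were the regions at 41.0 kb and 41.2 kb, while its mm9 series-level peaks matched those at -1.16 kb and -22.0 kb. At the median cut Bmp4 kept only the peak at -1.16 kb, whose signal of 40.16 equals the median. Id2 kept the peak at -28.7 kb in the conservative set and that at -0.789 kb within 10 kb. From 1 replicate's 15891 highest regions alone, 6 members had a peak with either, but 5 of them were shared with the main count: both lost Bmp2, replicate 2 alone gained Smad1 and replicate 1 alone gained Bmpr1a. Peaks at members numbered 15, against 8 with the conservative set, 7 at or above the median signal, 7 within 10 kb, 27 within 100 kb, and 12 without either replicate. The share of all genes with a peak was 48.4%, against 33.7% (conservative), 30.7% (median signal), 44.8% (50 kb from the TSS only), 25.3% (10 kb), 67.1% (100 kb), 27.9% (nearest TSS only), 45.2% (mm9), and 48.5% to 54.0% leaving out a replicate. Other BMP genes with a peak were 27, against 17 with the conservative set and 17 at or above the median signal. Member peaks supported in both replicates were 6, against 10 in the whole relaxed lists. mm9 peaks at members were 11, against 2 at a q-value of at most 0.001 and 4 to 16 leaving out a replicate. Of 90 alternative counts for single genes, 35 moved by more than 1.5 times. No paired analysis was possible because there is 1 group. The unknown depth limits what a missing peak shows, above all in replicate 2, which had fewer mm9 peaks: a site without a peak was not detected here, not shown to be unbound.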
